A study of Homo sapiens with 10 samples.

Results

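ORC2B2 is a derivative of HCT116, a widely used colon cancer cell line of human origin, that the labels describe as mutated in ORC2, a subunit of the origin recognition complex. Its 2 arrays were compared with the 2 arrays of the wild-type line (WT), 4 of the 10 arrays in the series. The probe annotation named 14884 genes. Of these, 10797 had a probe set at or above the array median on at least 2 arrays and were tested. All cells were untreated. The 6 remaining arrays belong to 3 other mutant lines, ORC2BP8 (ORC2) and ORC1B14 and ORC1BP32 (ORC1), with 2 arrays each. The labels give neither the kind of mutation nor whether ORC2B2 holds any ORC2 protein, and ORC2B2 is a single line, so what belongs to the mutation and what belongs to that line cannot be told apart here. Replicates are titled biological replicate 1 and 2 without saying what separates them, so p-values measure the spread between these arrays.

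The origin recognition complex binds the sites where DNA replication can start. Before S phase it recruits CDC6 and CDT1, and together they load the ring-shaped MCM2 to MCM7 helicase onto DNA, a step called licensing. At the onset of S phase CDC45 and the GINS complex join the helicase and the replication fork starts to move. Genes for licensing and fork proteins are transcribed mainly through E2F factors as cells pass from G1 into S phase.

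Each array gave 1 log2 value per probe set for 53617 probe sets, with array medians of 3.96 and 3.87 in WT and 3.94 and 3.88 in ORC2B2. Of 10797 genes tested, none was ORC1 to ORC6 (0 of 6 named), so the level of the mutated gene could not serve as a check of the labels and was not analysed here. Markers of colorectal epithelium were present: 12 of 20 were named and 10 of these lay at or above the array median on all 4 arrays, among them KRT18, EPCAM and KRT19, while CEACAM5 and CEACAM6 lay below it. The mean level over the named epithelial markers ranged from 5.68 to 5.97 in WT and from 5.95 to 6.14 in ORC2B2. Of 3 named fibroblast markers, LUM and DCN lay below the array median on all 4 arrays and THY1 lay at or above it. Of 3 named blood cell markers, CD14 and LYZ lay below it and CD68 lay at or above it. At or above it on all 4 arrays were also 5 of 8 named hepatocyte and kidney markers and 2 of 9 named lung and breast markers. A level above the median was therefore not particular to the epithelial markers.

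In ORC2B2, 13 genes rose and 23 fell against WT. The genes that rose included the hair and epithelial keratin genes KRTAP2-3, KRT23 and KRT20, the exocytosis gene SYTL2, the WNT feedback gene AXIN2 and the licensing genes MCM4 and CDC6. Those that fell included YBX1, an RNA-binding protein, GRHL2 and DSC3 of the epithelial programme, the receptor gene ADGRF1, 3 Krüppel-like factors, and DDIT3 and TRIB3 of the integrated stress response. Differences ran from 0.99 to 3.24 log2 units among the genes that rose and from -3.30 to -1.09 among those that fell. Of the 36 genes, 35 changed by at least 2-fold.

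These 36 genes were 0.333% of the genes tested, with 0.12% higher and 0.213% lower (limma, Benjamini-Hochberg adjusted p under 0.05). Standard errors of the differences lay between 0.14 and 0.49 and adjusted p-values between 0.00472 and 0.0488. The values of the 2 lines did not overlap for any of the 36, which was true of 44.4% of all genes tested (24.5% higher, 19.9% lower). At an unadjusted p under 0.05 there were 1262 genes (11.7%), 628 higher (5.82%) and 634 lower (5.87%). The median difference over all genes was 0.03. The number of calls rested on single arrays: without WT replicate 1 it was 10, without WT replicate 2 it was 7, without ORC2B2 replicate 1 it was 17 and without ORC2B2 replicate 2 it was 11. It was 8 without either ORC1BP32 array, which enter only through the shared estimate of the spread. ADGRF1, DSC3 and GRHL2 kept their call without each of the 10 arrays, and each of the other 33 lost it without at least 1.

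**Figure D1:**
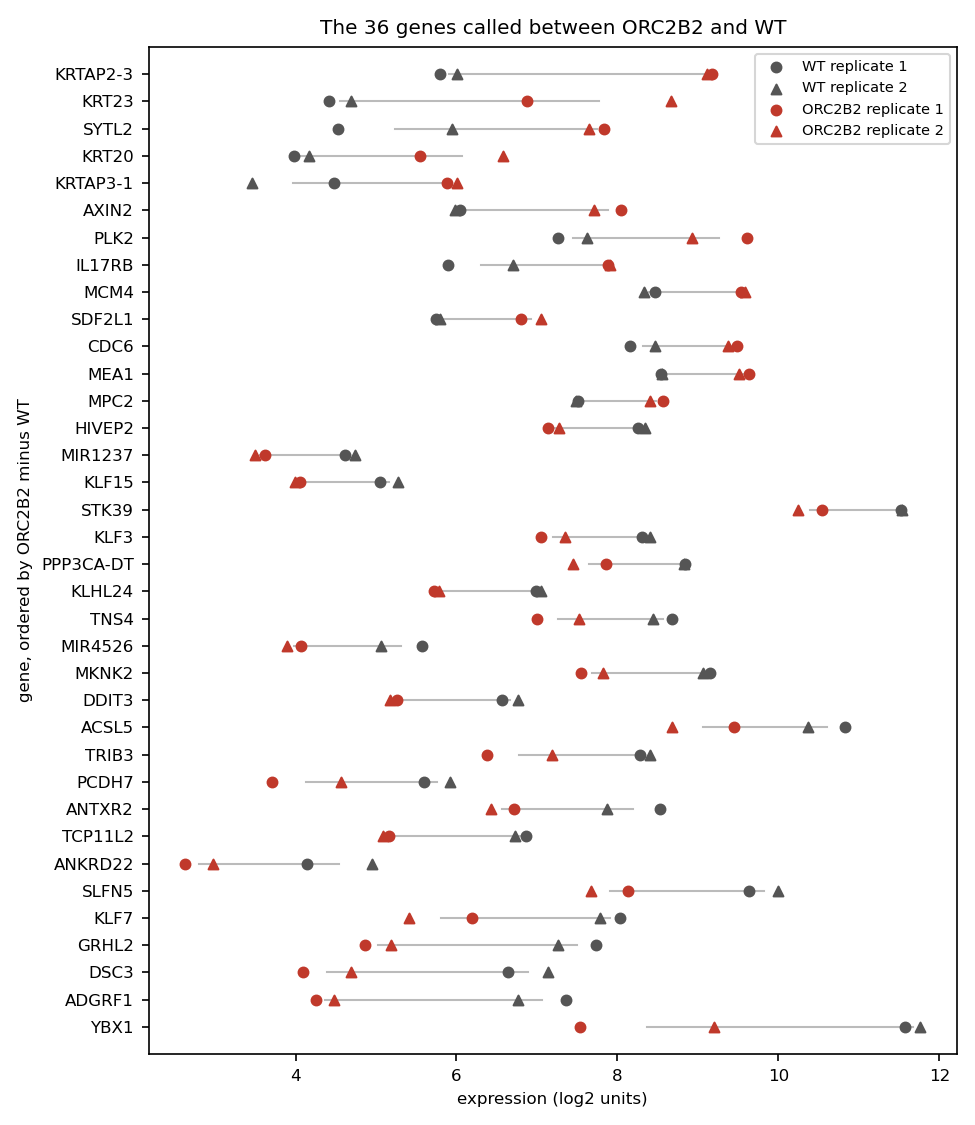
Expression of the 36 genes that passed the test between ORC2B2 (red) and WT (grey), in log2 units on the horizontal axis, with 1 row per gene ordered by the difference of means. Circles are replicate 1, triangles are replicate 2 and the grey line joins the means of both lines; YBX1 at the bottom and KRTAP2-3 at the top lie 3.30 and 3.24 log2 units from WT.

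Both licensing genes that passed the test rose about 2-fold. MCM4, a helicase subunit, read 8.47 and 8.32 in WT and 9.54 and 9.59 in ORC2B2, a difference of 1.17 ± 0.19 (SE of the limma fit, n = 2 arrays per line, adjusted p = 0.0371). Here and further on the SE rests on a spread estimated over all 10 arrays, not on the arrays of the 2 compared lines alone. CDC6, the factor that loads the helicase with the origin recognition complex, read 8.15 and 8.47 in WT and 9.49 and 9.38 in ORC2B2, a difference of 1.12 ± 0.18 (adjusted p = 0.0349). The ORC2B2 arrays of both genes lay close together and above both WT arrays. Among 15 licensing and MCM genes tested, 2 passed the test, 10 were higher at an unadjusted p under 0.05 and none (0) was lower. Their median difference was 0.78 beside 0.03 for all genes. The other mutant lines were also higher than the same WT arrays: MCM4 differed by 1.06 in ORC2BP8, 1.14 in ORC1B14 and 0.91 in ORC1BP32. In the same order CDC6 differed by 1.01, 0.88 and 0.93, and the list had medians of 0.57, 0.68 and 0.57.

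Of the 15 licensing genes 14 lay above 0, the exception being MCM9, a helicase of DNA repair, at -0.02, and 13 did not pass the adjusted test. List counts here and further on come from the fit without the replicate number as a block. MCM5 differed by 1.20, MCM2 by 0.97, MCM6 by 0.93 and MCM10, which acts when the helicase is activated, by 0.91, with adjusted p-values from 0.157 to 0.321. Of 15 fork genes, 0 passed the adjusted test and 11 were higher at an unadjusted p under 0.05. GINS2, a subunit of the complex that activates the helicase, read 6.32 and 7.21 in WT and 8.13 and 8.41 in ORC2B2, a difference of 1.81 within replicate number 1 and 1.19 within number 2 (adjusted p = 0.125). FEN1, the flap nuclease of lagging-strand synthesis, differed by 1.11, CLSPN, the fork checkpoint mediator, by 1.09, and DSCC1, a subunit of a clamp loader, by 0.95. All 15 fork genes were higher in ORC2B2 than both WT arrays, where 24.5% of all genes were. The fork list had medians of 0.73 in ORC2B2, 0.64 in ORC2BP8, 0.66 in ORC1B14 and 0.62 in ORC1BP32 against the same WT arrays.

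The difference was larger within replicate number 1 than within number 2 for these lists. Licensing genes had a median of 0.92 within number 1 and 0.60 within number 2. The 24 genes of G1/S cyclins, E2F factors and nucleotide synthesis had 0.64 and 0.21, with 9 higher at an unadjusted p under 0.05 and 0 past the adjusted test. Among these, TYMS, which makes thymidylate, differed by 1.03, E2F1 by 0.85 and UHRF1, which reads hemimethylated DNA, by 0.81. The 22 genes of the DNA damage checkpoint and homologous recombination had 0.45 within number 1 and 0.06 within number 2, with 6 higher at an unadjusted p under 0.05. The 36 mitosis genes had 18 higher and 1 lower at an unadjusted p under 0.05, a median of 0.45, and 1 that passed the test, PLK2. PLK2, a polo-like kinase induced by stress and in G1, read 7.26 and 7.63 in WT and 9.61 and 8.93 in ORC2B2, a difference of 1.83 ± 0.30 (adjusted p = 0.0371). Against the same WT arrays PLK2 differed by 2.06 in ORC2BP8, 1.79 in ORC1B14 and 0.59 in ORC1BP32. In the same order the G1/S list had medians of 0.47, 0.41 and 0.37 and the mitosis list 0.45, 0.37 and 0.30.

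Promoters are shown for a licensing and a fork gene and for 2 genes of the stress response that fell, since the medians of their lists lay on opposite sides of 0. The sequences are the 250 bases before the RefSeq start on GRCh38.p14, read 5′ to 3′ on the gene's strand, and 25 of the 36 called genes had a promoter in the table. Capitals mark CCAAT or its reverse complement ATTGG, and the E2F forms TTTCGCGC, TTTGGCGC, TTTGGCGG and GGCGGGAA or their reverse complements, of which TTTGGCGG and GGCGGGAA can overlap. These E2F letters were chosen after the CDC6 promoter had been read. CDC6 lies at chr17:40287629-40287878 on the plus strand, GINS2 at chr16:85688955-85689204 on the minus strand, DDIT3 at chr12:57520515-57520764 on the minus strand and KLHL24 at chr3:183635373-183635622 on the plus strand.
CDC6: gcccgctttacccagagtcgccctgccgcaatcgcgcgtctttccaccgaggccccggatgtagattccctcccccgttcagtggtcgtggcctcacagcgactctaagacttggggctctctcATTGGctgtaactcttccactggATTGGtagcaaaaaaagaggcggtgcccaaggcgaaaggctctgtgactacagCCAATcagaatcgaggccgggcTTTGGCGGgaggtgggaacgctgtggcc
GINS2: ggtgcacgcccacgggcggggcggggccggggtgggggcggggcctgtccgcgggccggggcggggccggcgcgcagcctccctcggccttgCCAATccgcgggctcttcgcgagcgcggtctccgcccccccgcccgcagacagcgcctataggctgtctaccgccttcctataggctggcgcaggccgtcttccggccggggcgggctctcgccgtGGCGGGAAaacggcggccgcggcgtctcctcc
DDIT3: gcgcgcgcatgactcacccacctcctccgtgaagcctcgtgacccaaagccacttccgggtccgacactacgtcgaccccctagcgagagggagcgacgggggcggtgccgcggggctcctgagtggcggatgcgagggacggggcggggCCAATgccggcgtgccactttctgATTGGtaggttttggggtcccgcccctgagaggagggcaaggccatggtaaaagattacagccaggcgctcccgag
KLHL24: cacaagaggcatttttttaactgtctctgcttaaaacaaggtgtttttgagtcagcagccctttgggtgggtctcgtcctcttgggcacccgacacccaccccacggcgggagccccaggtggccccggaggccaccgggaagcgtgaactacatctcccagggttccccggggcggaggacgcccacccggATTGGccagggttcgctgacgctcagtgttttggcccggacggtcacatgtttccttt

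The CDC6 promoter held 3 CCAAT boxes and 1 E2F form, and the GINS2 promoter 1 of each. At least 1 of the 4 E2F forms was found in 7 of 13 licensing promoters, in 3 of 11 fork promoters and in 6 of 19 G1/S promoters, beside 6.54% of the 8245 promoters of tested genes and 4.24% of all 27305. It was also found in 4 of 12 centrosome promoters (list median 0.21) and in 0 of 20 interferon promoters. Among RNA-binding proteins (list median -0.01) 5 of 17 promoters held 1, that of YBX1 included. CDC6 is among the 7 licensing promoters, and since the letters were chosen after its promoter had been read, its match was fixed beforehand. A CCAAT box was found in 24 of 31 mitosis promoters, 8 of 13 licensing promoters and 7 of 11 fork promoters, beside 34.7% for tested genes and 33.0% for all. It was also in 11 of 12 chaperone promoters, whose list had a median close to 0. Among the called genes it was in 4 of 9 promoters of those that rose and 7 of 16 of those that fell. DDIT3 held 2 CCAAT boxes and KLHL24 1, and 10 of 16 promoters of the ATF4 and CHOP list held at least 1. The C/EBP-ATF element TGATGNAAT was in 0 of these 16 within 250 bases, beside 0.388% for tested genes and 0.916% for all. At so low a share, 0 of 16 does not set the list apart. A match is only a match of letters, and the shares describe these windows.

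TRIB3, DDIT3 and KLHL24 of the integrated stress response fell in ORC2B2. This response is the cell's reaction to amino acid shortage and misfolded protein: ATF4 is translated, and it induces DDIT3 (CHOP), TRIB3 and the amino acid synthesis and transport genes. TRIB3, a pseudokinase that restrains the response, read 8.28 and 8.40 in WT and 6.38 and 7.18 in ORC2B2, and fell by 1.56 ± 0.25 (adjusted p = 0.035). DDIT3 read 6.56 and 6.76 in WT and 5.26 and 5.17 in ORC2B2, and fell by 1.44 ± 0.26 (adjusted p = 0.0488). KLHL24, an adaptor of a ubiquitin ligase, fell by 1.27 within replicate number 1 and by 1.27 within number 2 (adjusted p = 0.0371). No ORC2B2 array of these 3 genes reached either WT array.

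Of 18 ATF4 and CHOP targets tested, 3 fell, 11 were lower at an unadjusted p under 0.05 and 0 were higher. The list had a median of -0.72, with -0.63 within replicate number 1 and -0.72 within number 2. DDIT4, an inhibitor of mTORC1, differed by -1.36 (adjusted p = 0.0744), SESN2 by -1.12 and ASNS, asparagine synthetase, by -1.06. In the list of 17 aminoacyl-tRNA synthetases, 0 passed the adjusted test and 4 were lower at an unadjusted p under 0.05, with SARS1 at -0.76 (adjusted p = 0.111). Of the 12 endoplasmic reticulum chaperones and sensors 1 rose: SDF2L1, part of a chaperone complex, by 1.16 ± 0.19 (5.74 and 5.79 in WT, 6.80 and 7.05 in ORC2B2, adjusted p = 0.0371). Within that list ERN1, the stress sensor IRE1, differed by -0.95 (adjusted p = 0.0707), and the list's median lay close to 0, with 6 genes above it and 6 below. ATF4 and CHOP targets were also lower than WT in the other lines, with medians of -0.89 in ORC2BP8, -0.40 in ORC1B14 and -0.79 in ORC1BP32, all measured against the same WT arrays.

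**Figure D2:**
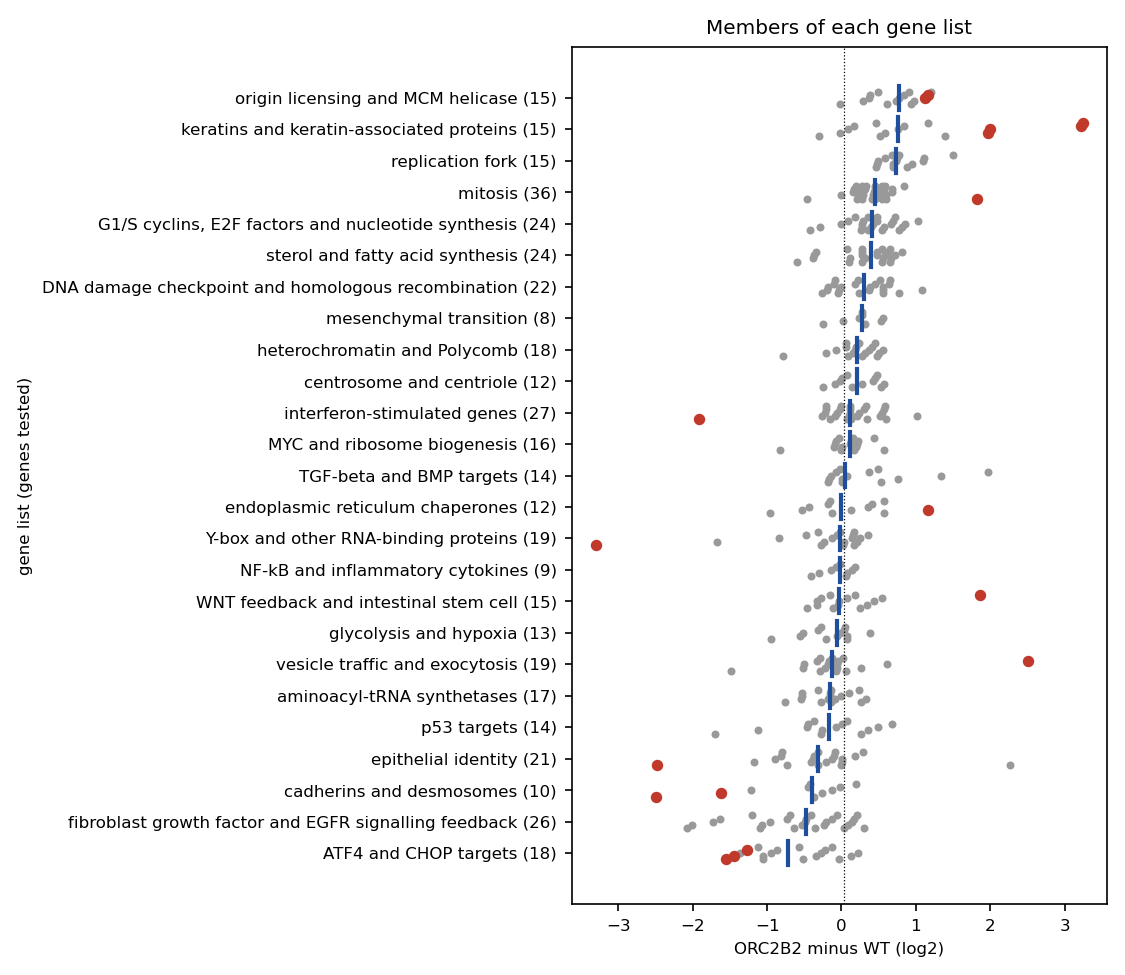
Difference ORC2B2 minus WT (log2) of each tested member of 25 gene lists, 1 point per gene, with genes that passed the adjusted test in red and the list's median as a blue bar. The dotted line is the median over all genes, 0.03. Licensing, keratin and fork lists have the highest medians and the ATF4 and CHOP list the lowest, -0.72.

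KRTAP2-3, KRT23, KRT20 and KRTAP3-1 rose, and the cadherin genes DSC3 and PCDH7 fell. Keratins form the intermediate filaments of epithelial cells, and the keratin-associated proteins cross-link them in hair. KRTAP2-3 read 5.80 and 6.01 in WT and 9.18 and 9.12 in ORC2B2, a difference of 3.24 ± 0.41 (adjusted p = 0.0145). KRT23 read 4.41 and 4.69 in WT and 6.88 and 8.66 in ORC2B2, a difference of 3.22 ± 0.49 (adjusted p = 0.0323). KRT20, the keratin of differentiated intestinal epithelium, read 3.98 and 4.16 in WT and 5.55 and 6.58 in ORC2B2, a difference of 1.99 ± 0.30 (adjusted p = 0.0322). The KRTAP2-3 arrays of ORC2B2 nearly coincided, whereas those of KRT23 and KRT20 stood apart, with replicate 2 the higher in both.

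KRTAP3-1 rose by 1.97 ± 0.31 (adjusted p = 0.0335), with 1 of its WT arrays below the array median. Of 15 keratin and keratin-associated genes tested, 4 rose, 9 were higher at an unadjusted p under 0.05 and 0 were lower, and the median was 0.76. KRTAP2-4 read 5.99 and 4.45 in ORC2B2 and differed from WT by 1.39 (adjusted p = 0.267). KRTAP2-3 and KRTAP2-4 are close relatives, and whether probes read both was not tested. Against WT, KRT23 differed by 1.37 in ORC2BP8, 0.17 in ORC1B14 and 0.03 in ORC1BP32, and KRTAP2-3 by 3.63, 1.96 and 1.16 in the same order.

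DSC3, desmocollin 3 of the desmosomes that hold epithelial cells together, read 6.64 and 7.14 in WT and 4.10 and 4.69 in ORC2B2. It fell by 2.50 ± 0.24 (adjusted p = 0.00472), with a difference of -2.54 within replicate number 1 and -2.45 within number 2. PCDH7, a protocadherin, read 5.60 and 5.91 in WT and 3.70 and 4.56 in ORC2B2 and fell by 1.62 ± 0.28 (adjusted p = 0.0456), with 1 ORC2B2 array below the array median. Of 10 cadherin and desmosome genes tested 2 fell and 4 were lower at an unadjusted p under 0.05, with a median of -0.39. That median was -0.60 within replicate number 1 and -0.18 within number 2, -0.25 without ORC2B2 replicate 1 and -0.10 with dim probe sets kept. DSC2 differed by -1.22 (adjusted p = 0.0756) and DSG2 by -0.42.

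GRHL2, a grainyhead-like transcription factor that maintains epithelial junction genes, had the lowest adjusted p together with DSC3. It read 7.74 and 7.27 in WT and 4.86 and 5.19 in ORC2B2 and fell by 2.48 ± 0.25 (adjusted p = 0.00472). The 2 lines were separated by more than 2 log2 units on either replicate number. Of 21 epithelial identity genes tested, GRHL2 was the 1 that passed the test, while 6 were lower and 1 higher at an unadjusted p under 0.05, with a median of -0.31. That median was -0.56 within replicate number 1 and -0.05 within number 2, -0.15 without WT replicate 1 and -0.16 without ORC2B2 replicate 1. CLDN7, a tight junction claudin, differed by -1.17, ESRP1, an epithelial splicing factor, by -0.89 and OVOL1 by -0.81, with adjusted p-values of 0.179, 0.104 and 0.17. EHF, an ETS factor of epithelia, ran the other way at 2.26 (3.77 and 3.97 in WT, 5.21 and 7.05 in ORC2B2, adjusted p = 0.0722). Of 8 mesenchymal genes tested 0 passed the adjusted test, with ZEB1 at 0.56 and VIM at 0.53.

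AXIN2 rose. It is a scaffold of the complex that degrades beta-catenin and is itself induced by WNT signalling as a feedback inhibitor. AXIN2 read 6.05 and 5.99 in WT and 8.04 and 7.71 in ORC2B2, a difference of 1.86 ± 0.28 (adjusted p = 0.0322). Against the same WT arrays AXIN2 differed by 1.43 in ORC2BP8, 1.30 in ORC1B14 and 1.24 in ORC1BP32. Of 15 WNT feedback and intestinal stem cell genes AXIN2 was the 1 that passed the test, and the median was -0.04. SP5, another target, differed by 0.54 and ZNRF3, which removes WNT receptors, by 0.44.

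Of 26 genes for fibroblast growth factors, EGFR ligands and the feedback inhibitors of the ERK pathway, 0 passed the adjusted test, 20 lay below 0 and 6 above, and 12 were lower and 0 higher at an unadjusted p under 0.05. The median was -0.48, with -0.55 within replicate number 1 and -0.47 within number 2. EREG, the EGFR ligand epiregulin, read 11.91 and 11.79 in WT and 10.84 and 8.72 in ORC2B2, a difference of -2.07 (adjusted p = 0.103). FGF2 differed by -2.01, DUSP5, a nuclear ERK phosphatase, by -1.73, FGF9 by -1.64 and FGF19, an intestinal hormone, by -1.21, with adjusted p-values from 0.0928 to 0.151. The EREG difference was -1.07 within replicate number 1 and -3.08 within number 2. TNS4, a tensin at focal adhesions, fell by 1.31 ± 0.23 (adjusted p = 0.0488).

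Of 14 TGF-beta and BMP targets 0 passed the adjusted test and 3 were higher at an unadjusted p under 0.05. THBS1, thrombospondin, differed by 1.97 (adjusted p = 0.0747) and SMAD6, an inhibitor of BMP signalling, by 1.33 (adjusted p = 0.0906). The 24 genes of sterol and fatty acid synthesis had 10 higher and 1 lower at an unadjusted p under 0.05, a median of 0.39 and 0 past the adjusted test, with EBP at 0.81 and DHCR7 at 0.72, both enzymes of late cholesterol synthesis. Of 14 p53 targets 0 passed the adjusted test, and 1 was higher and 4 were lower at an unadjusted p under 0.05, with the secreted factor GDF15 at -1.70 and BAX, which opens the mitochondrial outer membrane, at 0.68. Among 27 interferon-stimulated genes 1 fell, SLFN5, a Schlafen family member. It read 9.64 and 9.99 in WT and 8.13 and 7.68 in ORC2B2 and fell by 1.91 ± 0.27 (adjusted p = 0.0259), whereas the list's median was 0.12. No gene of the 16 in the MYC and ribosome biogenesis list passed an unadjusted p of 0.05 (0 in either direction), and MYC itself read 9.30 and 9.90 in WT and 8.01 and 9.54 in ORC2B2.

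KLF7, KLF3 and KLF15, Krüppel-like zinc finger proteins that bind GC-rich promoters, fell. The family was looked at after these values had been seen: of 16 KLF genes tested 3 fell and 0 rose, 6 lay above 0 and 10 below, and the median was -0.09. KLF7 read 8.03 and 7.78 in WT and 6.20 and 5.42 in ORC2B2 and fell by 2.10 ± 0.31 (adjusted p = 0.0282). KLF3, mainly a repressor, fell by 1.16 ± 0.20 (adjusted p = 0.0456) and KLF15, a metabolic regulator, by 1.13 ± 0.18 (adjusted p = 0.0323). Both ORC2B2 arrays were below both WT arrays in all 3. HIVEP2, another zinc finger factor, fell by 1.09 ± 0.19 (adjusted p = 0.0456). Its second probe set lay below the array median and differed by -0.05.

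The remaining genes that fell had varied roles. ADGRF1, an adhesion G protein-coupled receptor, read 7.36 and 6.76 in WT and 4.25 and 4.47 in ORC2B2 and fell by 2.70 ± 0.30 (adjusted p = 0.00892). ANTXR2, an anthrax toxin receptor that binds matrix proteins, fell by 1.63, and ACSL5, which activates long-chain fatty acids, fell by 1.54. TCP11L2 fell by 1.67. MKNK2, a kinase of the translation factor eIF4E, fell by 1.42 ± 0.19 (adjusted p = 0.0215). STK39, the kinase SPAK that regulates ion cotransporters, read 11.53 on both WT arrays and 10.54 and 10.25 in ORC2B2, and fell by 1.14 ± 0.14 (adjusted p = 0.0145). PPP3CA-DT, a divergent non-coding transcript, fell by 1.18. ANKRD22 fell by 1.74, with both ORC2B2 arrays below the array median, so that its size is uncertain. Only the 2 WT arrays were at or above the median, and 8 were below. ANKRD22 thus passed the filter only through the line where it was high, and its fall is given as a description.

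The remaining genes that rose were SYTL2, IL17RB, MEA1 and MPC2. SYTL2, an effector of RAB27 in exocytosis, read 4.52 and 5.94 in WT and 7.84 and 7.64 in ORC2B2, a difference of 2.51 ± 0.43 (adjusted p = 0.0449). Its WT arrays were far apart, and the difference was 3.32 within replicate number 1 and 1.71 within number 2. IL17RB, a receptor subunit for the cytokine IL-25, read 5.90 and 6.70 in WT and 7.88 and 7.91 in ORC2B2, a difference of 1.59 ± 0.25 (adjusted p = 0.0323). MPC2, a subunit of the mitochondrial pyruvate carrier, rose by 0.99 ± 0.18 (adjusted p = 0.0488) and MEA1 by 1.03 ± 0.17 (adjusted p = 0.0371). Of 19 genes of vesicle traffic SYTL2 was the 1 that passed the test, with SYT1, a calcium sensor of secretion, at -1.48 (adjusted p = 0.091).

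The 5 genes nearest to the threshold on its other side were all lower in ORC2B2. RBCK1, a subunit of the linear ubiquitin ligase, differed by -1.06, MIR619 by -1.17, the ubiquitin ligase TRIM25 by -0.90, ANKRD29 by -2.02 and EPAS1, the hypoxia factor HIF-2alpha, by -1.10, with adjusted p-values from 0.0644 to 0.0673. TNS4, DDIT3 and MPC2 lay just inside, at 0.0488.

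**Figure D3:**
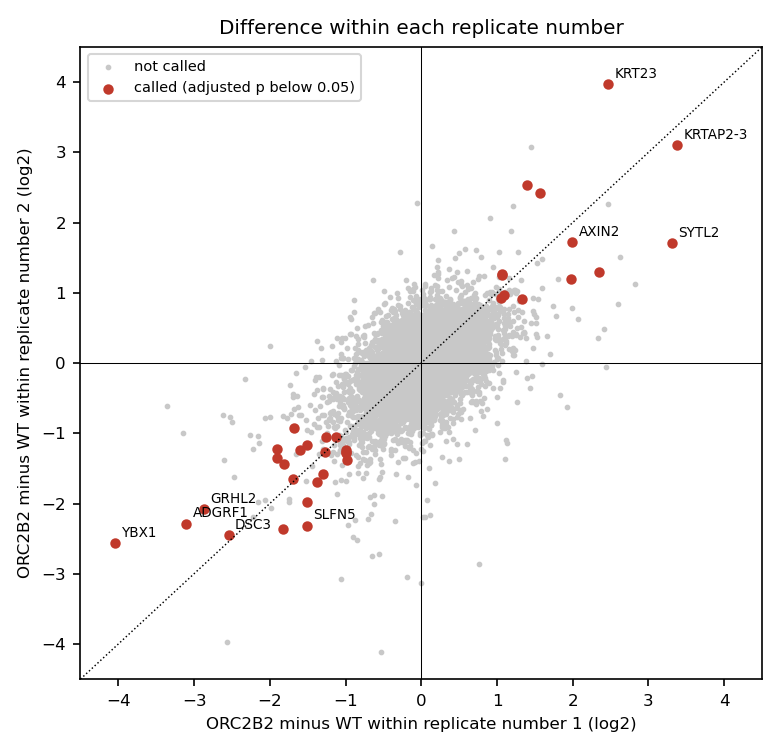
Difference ORC2B2 minus WT (log2) within replicate number 1 (horizontal axis) and within number 2 (vertical axis) for all 10797 genes, with the 36 genes that passed the test in red and the dotted line marking equal differences. All 36 have the same sign within both numbers, and 5 of them differ by over 1 between the numbers, by up to 1.61.

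Of the 406 miRNA genes tested, MIR4526 and MIR1237 passed the test, both lower, which is 0.493% beside 0.333% of all genes. MIR4526 read 5.57 and 5.06 in WT and 4.07 and 3.89 in ORC2B2 and fell by 1.34 ± 0.22 (adjusted p = 0.0371). MIR1237 read 4.61 and 4.74 in WT and 3.62 and 3.50 in ORC2B2 and fell by 1.12 ± 0.16 (adjusted p = 0.0293), with both ORC2B2 arrays below the array median. Their RefSeq mature sequences are given so that their targets can be looked up, with the seed, bases 2 to 8, in capitals. They lie on GRCh38.p14 at chr18:13611167-13611188 (miR-4526) and at chr11:64368651-64368671 and chr11:64368683-64368703 (both arms of miR-1237), all on the plus strand.
hsa-miR-4526: gCUGACAGcagggcuggccgcu
hsa-miR-1237-5p: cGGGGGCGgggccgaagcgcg
hsa-miR-1237-3p: uCCUUCUGcuccgucccccag
No 2 of these seeds were alike. The labelled material is total RNA amplified for long transcripts, and whether these probe sets read the mature miRNA or its precursor and host transcript was not tested. MIR4526 lies within LDLRAD4, whose own probe set differed by 0.34 and did not pass the test.

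YBX1 stood apart from all other lines as well as from WT. YBX1 is the Y-box protein that packages mRNA and regulates its translation and stability. It read 11.58 and 11.76 in WT and 7.54 and 9.20 in ORC2B2, so both ORC2B2 arrays were far below WT and replicate 1 was the lower of them. It fell by 3.30 ± 0.39 (adjusted p = 0.0116). In the fit without WT replicate 2 its adjusted p was 0.0716, and in the fit of the 4 arrays alone 0.0709. Without ORC2B2 replicate 1 the fall was 2.47 and without ORC2B2 replicate 2 it was 4.13.

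In the other mutant lines YBX1 read between 11.46 and 11.90, and these 3 lines differed from WT by -0.02, 0.16 and -0.01. Of 19 genes for Y-box and other RNA-binding proteins YBX1 was the 1 that passed the test. Its relative YBX3 differed by -0.84 (adjusted p = 0.228), and IGF2BP3, which binds and stabilises mRNA, by -1.67 (8.03 and 8.21 in WT, 5.54 and 7.36 in ORC2B2, adjusted p = 0.287). Against the same WT arrays YBX3 differed by -0.60 in ORC2BP8, -1.07 in ORC1B14 and -0.63 in ORC1BP32, and IGF2BP3 by -0.48, -1.70 and -0.78. The 20 tested genes around YBX1 on chromosome 1 had a median difference of 0.05, and its direct neighbours PPIH and CLDN19 differed by 0.74 and -0.02. YBX1 was read by 1 probe set.

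The comparison with the 3 other mutant lines uses no WT array and asks in what ORC2B2 differed from lines that also carry an ORC mutation. It called 4 genes, 0.037% of those tested, all lower in ORC2B2: YBX1, GRHL2, MID1 and MIR4526. At an unadjusted p under 0.05 there were 556 genes (5.15%). YBX1 differed from the mean of the 3 lines by -3.34 ± 0.32 (adjusted p = 0.0057), GRHL2 by -1.93 ± 0.20 (adjusted p = 0.00753), MID1 by -1.49 ± 0.20 and MIR4526 by -1.35 ± 0.18 (both adjusted p = 0.0372). YBX1 kept this call under each of 19 alternative settings, and GRHL2 lost it in the fit without ORC2B2 replicate 1 (adjusted p = 0.0907). MID1 and MIR4526 each kept it in 2 of the 10 fits that leave out an array, with adjusted p-values up to 0.257 and 0.25.

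GRHL2 read 7.42 and 7.02 in ORC2BP8, 6.22 and 5.80 in ORC1B14 and 7.72 and 7.53 in ORC1BP32, so the ORC2B2 arrays at 4.86 and 5.19 lay below all of them. ORC1B14 was the next lowest line and also differed from WT, by -1.49 (adjusted p = 0.0384). MID1, a microtubule-associated ubiquitin ligase gene on the X chromosome, read 7.52 and 7.21 in ORC2B2, 8.67 and 8.61 in WT and between 8.31 and 9.42 in the other mutant lines. Against WT it missed the threshold (difference -1.28, adjusted p = 0.0673). MIR4526 read between 5.05 and 5.52 in the other mutant lines, and both ORC2B2 arrays lay below every other array. Of the genes just past the threshold of this comparison, KRT23 differed by 2.69 (adjusted p = 0.0821), EPAS1 by -1.11 (adjusted p = 0.0835) and KRT20 by 1.56 (adjusted p = 0.0935).

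**Figure D4:**
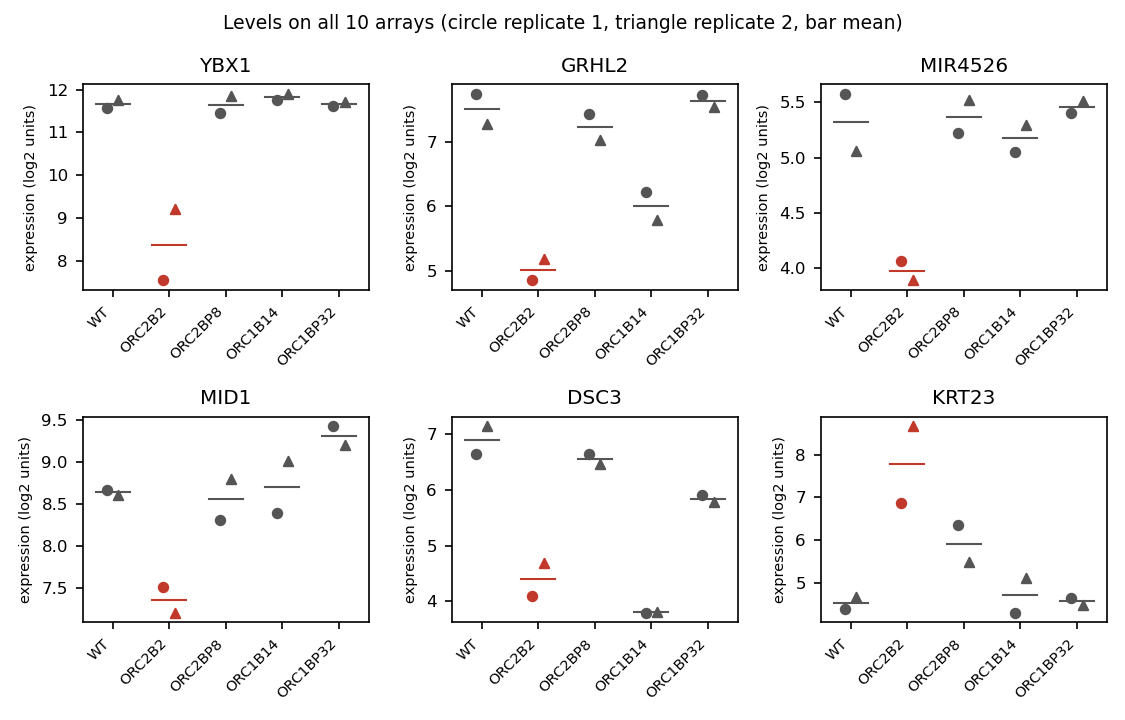
Expression (log2 units) of YBX1, GRHL2, MIR4526, MID1, DSC3 and KRT23 on all 10 arrays, by line, with ORC2B2 in red, circles for replicate 1, triangles for replicate 2 and bars for means. Each panel has its own vertical scale that does not start at 0. The ORC2B2 arrays are the lowest in the panels of YBX1, GRHL2, MIR4526 and MID1, while DSC3 is lower still in ORC1B14, at 3.80 and 3.81.

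Of the 36 genes, 3 (YBX1, GRHL2 and MIR4526) were called against the 3 other lines, and 5 against ORC2BP8, the other ORC2 line: these 3, DSC3 with -2.16 (adjusted p = 0.00777) and IL17RB with 1.48 (adjusted p = 0.0437). The comparison with ORC2BP8 called 24 genes (0.222%) in all. Against WT, 33 of the 36 genes differed in the same direction in all 3 other mutant lines. The share of all genes tested with the same direction in all lines was not counted, so this count has no background. Of the 36, 12 were called in ORC2B2 alone, 13 in 2 lines, 9 in 3 lines and 2 in all 4, ORC2B2 included. These counts depend on the threshold. Of the 12, KRTAP3-1, MKNK2 and KLF3 differed from WT by 1.47, -0.90 and -0.94 in ORC2BP8 (limma adjusted p = 0.0588, 0.0588 and 0.0607). YBX1 and MIR4526, also among the 12, differed there by -0.02 and 0.05. The shares of all genes called in ORC2BP8 and in ORC1BP32 are not given here. The other lines' differences from WT, given here beside those of ORC2B2, share the WT arrays with them. Agreements between lines in direction or in calls are therefore not independent. ADGRF1 read between 4.07 and 4.93 on every array of the other mutant lines, and TRIB3 between 6.32 and 6.78, beside 6.38 and 7.18 in ORC2B2. DSC3 fell by 3.09 in ORC1B14 (adjusted p = 0.00083), where 0.583% of genes passed the test against WT, and differed by -0.34 in ORC2BP8 and by -1.05 in ORC1BP32.

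Genes were also described by their place on the chromosomes. Over 10332 windows of 21 neighbouring tested genes, the medians of ORC2B2 minus WT lay between -0.24 and 0.23 at the 1st and 99th percentiles. The windows described were chosen for their medians, so no test is given. The lowest lay on chromosome 18, from KCTD1 to KIAA1328, with a median of -0.51 and 18 of 21 genes below 0. It holds DSC3, DSC2 and DSG2, and its middle genes ZNF24, ZNF396 and INO80C differed by -0.64, -0.21 and -0.57. The same 21 genes had a median of 0.02 in ORC2BP8, -0.21 in ORC1B14 and -0.12 in ORC1BP32.

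The next lowest lay on chromosome 13, from PRECSIT to CDC16, with a median of -0.47 and 18 of 21 genes below 0. Its medians were -0.57 within replicate number 1 and -0.42 within number 2, and 0.03, -0.23 and -0.02 in ORC2BP8, ORC1B14 and ORC1BP32. It holds none of the 36 genes. Its middle genes PCID2, CUL4A, a scaffold of ubiquitin ligases, and LAMP1, a lysosomal membrane protein, differed by -0.91, -0.31 and -0.23.

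The highest window was the type I keratin cluster on chromosome 17, from KRT10 to KRT19, with a median of 0.48 and 17 of 21 genes above 0. It holds KRT20, KRT23, KRTAP3-1 and KRTAP2-3, all of which rose. Its middle genes KRTAP9-8, KRTAP9-4 and KRTAP16-1 differed by 0.12, 0.21 and -0.06. The cluster had a median of 0.49 in ORC2BP8, 0.23 in ORC1B14 and 0.14 in ORC1BP32. The copy number of these regions was not measured.

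**Figure D5:**
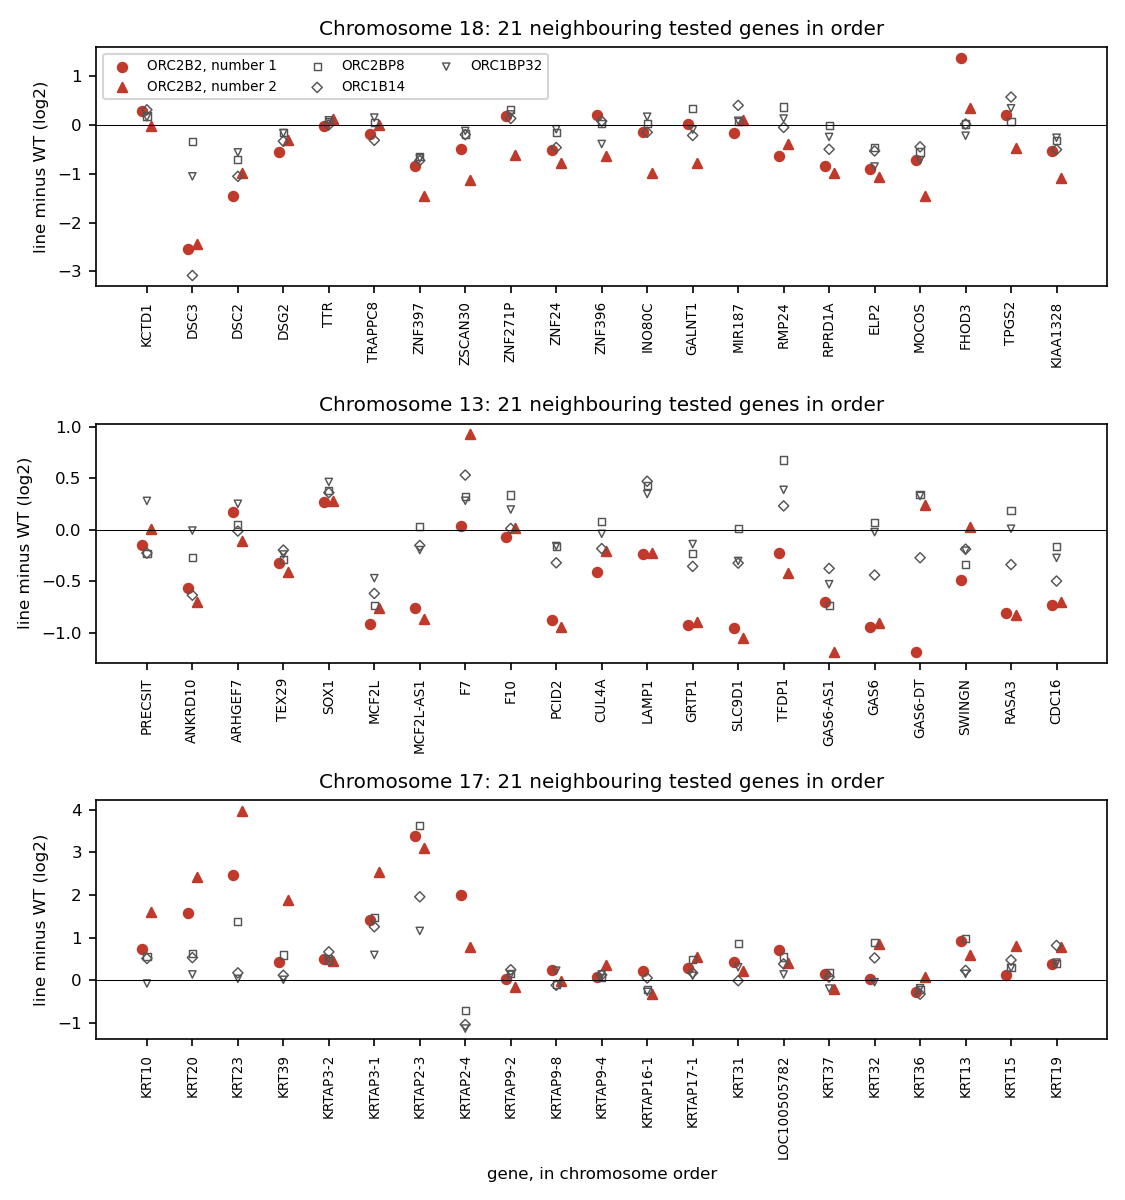
Difference from WT (log2) of 21 neighbouring tested genes on chromosomes 18, 13 and 17, in chromosome order, with equal spacing that is not to scale. Red circles and triangles are ORC2B2 minus WT within replicate numbers 1 and 2, and open symbols are the mean differences of the other mutant lines. On chromosomes 18 and 13 most ORC2B2 points lie below 0, and on chromosome 17 the raised genes sit at the KRT20 to KRTAP2-4 end.

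The 20 tested genes around GRHL2 had a median of -0.03 and those around MIR4526 of 0.02. In some places a direct neighbour moved the same way without passing the test, among them MIR548I1 beside KLF15, which differed by -2.07. CCDC89 beside SYTL2 differed by 1.23, MIR616 beside DDIT3 by -1.12, RBCK1 beside TRIB3 by -1.06, BTBD2 beside MKNK2 by -0.96 and VTI1A beside ACSL5 by -0.84. These neighbours were picked after their values were seen.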

How the data were processed

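Total RNA of 5 HCT116 lines, extracted with Trizol, was turned into biotinylated cRNA for Affymetrix arrays, per the labels' protocols. The deposited values are on a log2 scale, a base read from the values themselves, with 1 for each probe set on each array. Affymetrix Expression Console is the tool listed in the submitters' processing notes. How they were normalized, and with which annotation and build, is not given in the sources used here. The values were used as deposited. Arrays give no read depth, and their number limits the precision.

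Of 53617 probe sets, 16098 had 1 gene symbol (all matched RefSeq, GRCh38.p14), 0 had several and 37519 were unnamed. Probe sets at or above the array median on at least 2 arrays were kept (11554), and each of 10797 genes was represented by its brightest probe set on average. Line means of all 10 arrays were fitted in R 4.3.3 with limma 3.58.1 (lmFit, eBayes with an intensity trend, 5 residual and 5.83 prior degrees of freedom), two-sided, Benjamini-Hochberg adjusted over all genes, threshold 0.05. The fit was tested on simulated data. No 2 arrays were identical (0 pairs).

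The text names all called genes, those called against the 3 other mutant lines, the 5 nearest past the threshold, up to 5 members of each list and the 3 middle genes of each window; other genes named were chosen after their values were seen. The comparison and the lists were chosen with earlier results of these data known. Alternatives were quantile normalization, centring, no filter or a stricter one, a replicate block, no trend, robust eBayes, means over probe sets, the compared arrays alone, and leaving out each array.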

Additional observations from a re-analysis of the deposited data

Results flagged for a closer look

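The comparison of ORC2B2 with the 3 other mutant lines, tested in 1 contrast of the limma fit, found 4 genes whose level in ORC2B2 differed from that of the other lines. YBX1 differed by -3.34, GRHL2 by -1.93, MID1 by -1.49 and MIR4526 by -1.35 log2 units, with adjusted p-values of 0.0057, 0.00753, 0.0372 and 0.0372. In each of these genes both ORC2B2 arrays were lower than each of the 6 arrays of the other mutant lines. The genes were selected by that same contrast, so this separation is a description and adds no support. The share of all genes separated in this way was not counted.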

How the results depend on the processing

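None of the differences of the called genes and of the 5 nearest past the threshold turned its sign under an alternative (0 reversed). Against WT the number of called genes, 36 as reported, was 22 without a filter on dim probe sets (14884 genes tested), 13 in the fit of the 4 compared arrays alone (8 shared with the 36) and from 7 to 42 when 1 array was left out. It was 24 after centring, and 31 to 37 under quantile normalization, the stricter filter, no trend, robust eBayes and means over probe sets. With the replicate number as a block it was 251, among them all 36, with adjusted p-values up to 0.0175. The block called 7 of 15 licensing genes (all higher; 2 without it), 6 of 15 fork genes, 7 of 18 ATF4 and CHOP targets and 7 of 26 growth factor genes, beside 2.32% of all genes. Deviations of arrays with the same number correlated at 0.32 between WT and ORC2B2, and between 0.01 and 0.42 over 10 pairs of lines, above 0.1 in 7. Over all lines the array medians lay from 3.94 to 3.96 on replicate 1 and from 3.87 to 3.89 on replicate 2. Over all probe sets WT and ORC2B2 correlated at 0.9843 on replicate 1 and at 0.9823 on replicate 2. The 2 WT arrays correlated at 0.9841 and the 2 ORC2B2 arrays at 0.9817, so arrays of 1 line were no more alike. The counts of called genes rest on how the numbers are treated. No label says what a number shares and not every correlation of deviations was above 0.1, so the numbers were not taken as pairs. The main fit therefore keeps any difference shared by the arrays of a number in its spread.

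Against the 3 other mutant lines the count, 4 as reported, was 2 after centring, 2 without the filter, 16 with the replicate block and from 2 to 6 when 1 array was left out; without ORC2B2 replicate 1 it was 6, of which 4 were higher and 1 was shared. Of 28 lists with at least 5 tested genes, 19 kept the sign of their median in all 16 alternatives run for them and 9 did not. Those whose sign changed included the WNT, interferon, TGF-beta, MYC and chaperone lists, whose medians lay near 0. With 2 arrays per line, small differences could not be separated from spread. A signal below the array median limits the sizes of MIR1237, ANKRD22, PCDH7 and KRTAP3-1. Other called genes lay just above it on an array. Among them were KRT20 on WT replicate 1 (3.98 beside a median of 3.96) and MIR4526 on ORC2B2 replicate 2 (3.89 beside 3.88). The causes of these dependences were not tested.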
